A study of Homo sapiens with 12 samples.

Results

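The 10 genes described here are grouped as inhibitors that NF-κB induces or that bind it: *NFKBIA*, *NFKBIB*, *NFKBIE*, *NFKBIZ*, *BCL3*, *TNFAIP3*, *TNIP1*, *TNIP2*, *CYLD* and *ZC3H12A*. They were chosen by gene symbol, as known members of this group, from the 26364 genes counted by RNA-seq, and all 10 were counted in all 12 libraries. The libraries came from HCT116 cells, a human colon cancer cell line with an epithelial origin. WT and p65-deficient cells were kept without inhibitor or exposed to 5 µM CPT or 5 µM ICRF193. Each of these 6 states was sequenced before TNFα (0 h) and after 1 h of 20 ng/ml TNFα. The labels give 2 h of inhibitor at both time points, whereas the study's methods describe TNFα as added after a 2 h treatment. With an inhibitor, the libraries at 1 h may thus have been exposed longer, and the effects of TNFα and of longer exposure cannot be told apart there. Every condition is a lone library without a replicate. CPT (camptothecin) blocks topoisomerase 1 (TOP1), ICRF193 blocks topoisomerase 2 (TOP2), and the libraries without inhibitor received neither. The study's methods name both untreated and vehicle-treated cells, and the labels do not say which these were. The 6 p65-deficient libraries carry the label shRNA p65, whereas the study's methods describe a line grown from a single cell after CRISPR-Cas9 cutting of the p65 gene. They represent 1 clone, so that effects of p65 loss and of the clone cannot be told apart. The comparisons ask how each gene answers TNFα, how much of that answer is left without p65 and how it changes when TOP1 or TOP2 is blocked.

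In resting cells the classical IκB proteins, encoded by *NFKBIA*, *NFKBIB* and *NFKBIE*, hold NF-κB dimers in the cytoplasm. TNFα triggers their degradation, NF-κB enters the nucleus, and among its targets are genes of its own inhibitors, which closes a negative feedback loop. Further layers of this loop are proteins that edit or remove the ubiquitin chains of the TNF receptor complex, and an RNase that degrades inflammatory mRNAs (*ZC3H12A*, also called Regnase-1). The former are A20, encoded by *TNFAIP3*, and the deubiquitinase encoded by *CYLD*. ABIN-1 and ABIN-2, encoded by *TNIP1* and *TNIP2*, are partners of A20. The nuclear IκB proteins (*NFKBIZ*, *BCL3*) are counted in the group as well. They bind NF-κB subunits in the nucleus, and IκBζ lets some targets be transcribed, so they are not inhibitors alone.

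*RELA*, the p65 gene, was present at a lower mRNA level in the clone, with 548 to 673 normalized counts in its 6 libraries against 694 to 909 in the 6 WT libraries. At 0 h the log2 difference was -0.41 (standard error 0.11, edgeR's quasi-likelihood test, adjusted p = 0.049), and p65 protein is not seen in these data. Normalized counts are reads scaled by DESeq2 size factors. They are set against all other RNA of the same library and cannot tell a change in total RNA per cell apart from a change in other genes. *TOP1* had 1766 to 2261 normalized counts. All 5 epithelial markers examined (*EPCAM*, *KRT8*, *KRT18*, *KRT19*, *CDH1*) were present with at least 780 reads per library. Their summed level was 3478 to 4387 TPM (transcripts scaled to exon length and library). By contrast, 5 markers of blood, endothelial and stromal cells (*PTPRC*, *CD3E*, *PECAM1*, *COL1A1*, *COL3A1*) summed to 1.56 to 4.03 TPM. Most of this was *COL1A1*, with 57 to 227 reads and 1.49 to 4.03 TPM per library, while *CD3E* was at 0 throughout. Counted reads ranged from 16300210 to 22051046 per WT library and from 8101212 to 20524958 per p65-deficient library. The 4 shallow libraries (8101212 to 8755001 reads) all belong to the clone, namely its 3 TNFα libraries and its unstimulated ICRF193 library, so that depth and TNFα cannot be told apart in the clone without inhibitor and with CPT. The 95% interval beside a ratio of 2 libraries is exact (Clopper-Pearson), reflects counting error alone and says nothing of how a second culture would differ.

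The DNA just before the start of these genes was examined for the κB motif, the 10-base sequence that NF-κB dimers bind, and for the AP-1 motif TGANTCA, on either strand. The windows run from 250 bases before to 50 bases after the start (RefSeq, GRCh38.p14), whereas the reads were counted on hg19. Windows were found for all members except *NFKBIE*. A κB match was present in 9 of their 14 windows, against 11.3% of 35116 windows of all genes. By gene, 7 of these 9 had a match in at least 1 window, a share for which no background was computed. No match lay in the windows of *TNIP2* and *ZC3H12A*. The AP-1 motif as written above was present in 1 of the 14 windows, of *NFKBIB* with the letters TGAATCA, against 7.71% of all windows. The 30-base stretches below show κB matches of genes whose mRNA responded to TNFα and then of genes whose mRNA did not pass the test. They are on the strand of the gene, with the match in capitals, which may be the motif read on the opposite strand. For *NFKBIB*, with 3 κB matches in 1 window, and for *CYLD*, with a match in more than 1 window, only 1 match is shown.
NFKBIA (chr14:35404811-35404840, minus strand): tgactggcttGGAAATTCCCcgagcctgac
TNFAIP3 (chr6:137867182-137867211, plus strand): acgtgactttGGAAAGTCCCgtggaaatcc
TNFAIP3 (chr6:137867194-137867223, plus strand): aaagtcccgtGGAAATCCCCgggcctacaa
NFKBIZ (chr3:101827757-101827786, plus strand): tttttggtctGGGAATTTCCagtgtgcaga
NFKBIZ (chr3:101849265-101849294, plus strand): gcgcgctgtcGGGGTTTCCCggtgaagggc
BCL3 (chr19:44748700-44748729, plus strand): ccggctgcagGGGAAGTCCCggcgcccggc
NFKBIB (chr19:38899931-38899960, plus strand): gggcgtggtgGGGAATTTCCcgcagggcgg
TNIP1 (chr5:151081057-151081086, minus strand): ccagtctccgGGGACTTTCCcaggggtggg
CYLD (chr16:50741887-50741916, plus strand): ttgacagagcGGAAAGTCCCttcggccggc
The matches of *NFKBIA* and *TNFAIP3* begin 81, 67 and 55 bases before the start. Those shown for *NFKBIB* and *TNIP1*, whose mRNA did not pass the TNFα test, begin 28 and 42 bases before it. The *NFKBIB* window holds the letters GGGAATTTCC, which the upstream *NFKBIZ* window holds as well. Read on the opposite strand, the *NFKBIA* match has the same letters. A match in these windows was thus found among responding and non-responding members alike, and a match describes letters and not binding.

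Per length, the members spanned a wide range in WT cells before stimulation. *NFKBIA* had the highest level without inhibitor at 0 h with 69.1 TPM, followed by *TNIP2* with 54.6, *NFKBIB* with 41.6, *TNIP1* with 27.9, *NFKBIE* with 15.0, *ZC3H12A* with 10.5, *BCL3* with 5.41, *CYLD* with 4.55, *NFKBIZ* with 2.38 and *TNFAIP3* with 2.36. The counting intervals of *BCL3* and *CYLD* overlapped (4.52 to 6.43 and 4.17 to 4.97 TPM), as did those of *NFKBIZ* and *TNFAIP3* (1.99 to 2.84 and 1.99 to 2.78 TPM), and no other neighbours in this order overlapped. After 1 h of TNFα *NFKBIA* reached 665 TPM. *TNFAIP3*, the lowest member at 0 h, stood at 27.7 TPM, beside *NFKBIE* with 27.5 and *ZC3H12A* with 25.6, whose intervals overlapped, while *TNIP2* (54.6), *NFKBIB* (47.1) and *TNIP1* (32.1) remained above them and *CYLD* (4.70) was now the lowest.

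**Figure D1:**
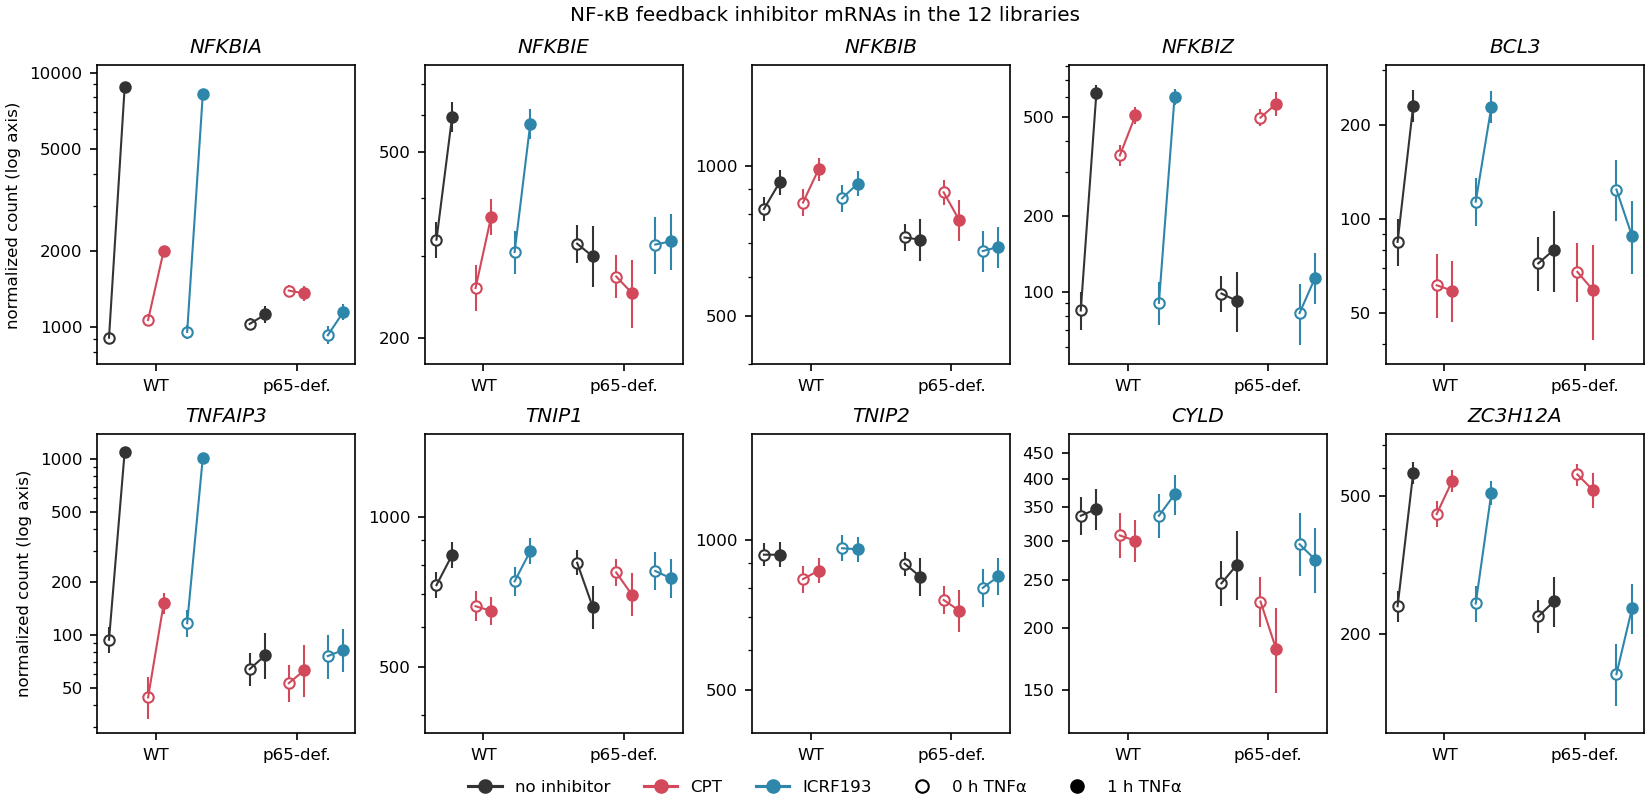
Normalized count (log axis, a separate range for each panel) of the 10 genes in the 12 libraries, with open symbols for 0 h and filled symbols for 1 h TNFα, lines joining the 2 libraries of a pair, and bars for 95% counting intervals. *NFKBIA* and *TNFAIP3* rise in all 3 WT pairs, least with CPT, while *TNIP2* stays between 721 and 963 in all libraries.

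Of the classical IκB genes, *NFKBIA* and *NFKBIE* responded to TNFα and *NFKBIB* hardly moved. *NFKBIA*, which encodes IκBα, lies on chromosome 14 (35870716 to 35873960, hg19, minus strand) and spans 3.2 kb. Its normalized count in WT cells was 909 at 0 h and 8758 at 1 h without inhibitor, 1067 and 1998 with CPT, and 958 and 8228 with ICRF193. In p65-deficient cells it was 1029.9 and 1122 without inhibitor, 1393 and 1357 with CPT, and 929 and 1149.7 with ICRF193. Both WT libraries with TNFα and without CPT thus stood far above the other 10, and the WT library with TNFα and CPT was the next highest. Without inhibitor the WT log2 ratio of 1 h to 0 h was 3.27 (3.19 to 3.35), with ICRF193 3.10 (3.01 to 3.19) and with CPT 0.90 (0.81 to 1.00). In the clone it was 0.12 (-0.01 to 0.26) without inhibitor, 0.31 (0.15 to 0.47) with ICRF193 and -0.04 (-0.16 to 0.08) with CPT.

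*NFKBIE* encodes IκBε and lies on chromosome 6 (44225903 to 44233525, hg19, minus strand, 7.6 kb). In WT cells it had 325 normalized counts at 0 h and 596 at 1 h without inhibitor, 256 and 364 with CPT, and 306 and 575 with ICRF193. In the clone the values were 318.5 and 299 without inhibitor, 271 and 249.7 with CPT, and 317 and 322 with ICRF193. All 3 WT libraries with TNFα were higher than all 9 others. The WT log2 ratios were 0.87 (0.71 to 1.04), 0.51 (0.30 to 0.72) and 0.91 (0.73 to 1.10) in that order, each below that of *NFKBIA* in the same pair.

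*NFKBIB*, the gene of IκBβ (chromosome 19, 39390340 to 39399534, hg19, plus strand, 9.2 kb), had 820.5 and 928 normalized counts without inhibitor in WT cells, 846 and 986.5 with CPT, and 862 and 923 with ICRF193. In the clone it had 719 and 712, 886 and 779, and 675 and 689 in the same order. All 3 WT libraries with TNFα were above the other 9, by little: the WT log2 ratios lay between 0.10 and 0.22. A stretch of 40 bases (1.70%) of its exons overlaps *SIRT2* on the opposite strand, where reads could not be assigned to either gene.

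The nuclear IκB genes *NFKBIZ* and *BCL3* both rose with TNFα in WT cells without inhibitor and with ICRF193, but went apart under CPT. *NFKBIZ* encodes IκBζ, which joins NF-κB p50 on DNA and lets a subset of its targets be transcribed. It lies on chromosome 3 (101546834 to 101579869, hg19, plus strand) and spans 33.0 kb, and 4.65% of its exonic bases also belong to the neighbouring *NXPE3*. In WT cells its normalized count was 84.0 and 625 without inhibitor, 350.5 and 507 with CPT, and 90.1 and 599.5 with ICRF193. In the clone it was 98.2 and 91.8, 497 and 564, and 82.05 and 114. All 4 CPT libraries were therefore high, with or without TNFα and with or without p65, whereas the 8 other libraries were high only in WT cells with TNFα. The TNFα log2 ratio in WT cells was 2.90 (2.62 to 3.18) without inhibitor, 2.73 (2.43 to 3.05) with ICRF193 and 0.53 (0.36 to 0.71) with CPT.

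*BCL3*, whose product binds p50 and p52 dimers in the nucleus, lies on chromosome 19 (45251978 to 45263301, hg19, plus strand, 11.3 kb). It had 84.7 and 231 normalized counts in WT cells without inhibitor, 61.5 and 59.1 with CPT, and 114 and 229.5 with ICRF193. The clone had 72.3 and 79.9, 67.9 and 59.4, and 125 and 88.4. These counts rest on 34 to 286 reads per library. Both WT libraries with TNFα and without CPT stood above the other 10, and the 4 CPT libraries were the lowest (59.1 to 67.9). Among WT pairs the log2 ratio was 1.45 (1.15 to 1.76) without inhibitor, -0.06 (-0.53 to 0.42) with CPT and 1.01 (0.71 to 1.32) with ICRF193, so *BCL3* was the member with a rise of over 2-fold without inhibitor for which no rise was detectable with CPT at this depth.

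*TNFAIP3* had the largest log2 ratio of all members without inhibitor, whereas *TNIP1* and *TNIP2*, the genes of the A20 partners, and *CYLD* differed little between libraries. *TNFAIP3* lies on chromosome 6 (138188325 to 138204451, hg19, plus strand, 16.1 kb). Its normalized count in WT cells was 93.9 and 1102 without inhibitor, 44.0 and 151 with CPT, and 117 and 1022 with ICRF193. In the clone it was 63.8 and 76.5, 53.1 and 62.9, and 75.7 and 82.1, from 36 to 91 reads. All 3 WT libraries with TNFα were higher than the other 9, and the WT library with CPT alone was the lowest of the 12. The WT log2 ratios were 3.55 (3.30 to 3.81) without inhibitor, 1.78 (1.34 to 2.24) with CPT and 3.13 (2.87 to 3.40) with ICRF193, and *TNFAIP3* was the 1 member still above 2-fold with CPT.

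*TNIP1* (chromosome 5, 150409504 to 150467221, hg19, minus strand, 57.7 kb) had 648 to 854 normalized counts in WT cells and 659 to 809.6 in the clone. In WT cells its log2 ratio was 0.20 both without inhibitor (0.08 to 0.33) and with ICRF193 (0.07 to 0.33) but -0.03 (-0.17 to 0.11) with CPT, and in the clone without inhibitor it was -0.30 (-0.47 to -0.13). *TNIP2* (chromosome 4, 2743387 to 2758103, hg19, minus strand, 14.7 kb) had 721 to 963 normalized counts, and all 6 of its TNFα intervals included 0. *CYLD* (chromosome 16, 50775961 to 50835846, hg19, plus strand, 59.9 kb) had 299.9 to 372 normalized counts in the WT libraries and 182 to 295 in those of the clone, so that the ranges all but met, and its 6 TNFα intervals also included 0.

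The RNase gene *ZC3H12A* (chromosome 1, 37940119 to 37949978, hg19, plus strand, 9.9 kb) showed a pattern like that of *NFKBIZ*, with smaller changes. In WT cells it had 240.2 and 583 normalized counts without inhibitor, 443 and 552 with CPT, and 245 and 509.6 with ICRF193. In the clone it had 224 and 248, 576 and 519, and 153 and 237. The 4 CPT libraries and the 2 remaining WT libraries with TNFα formed the high values (443 to 583), above the remaining 6 (153 to 248). The WT log2 ratio was 1.28 (1.10 to 1.46) without inhibitor, 0.32 (0.16 to 0.48) with CPT and 1.06 (0.85 to 1.27) with ICRF193. *ZC3H12A* also had a ratio above 0 in the clone with ICRF193 (0.63, 0.25 to 1.01), from 97 and 150 reads.

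**Figure D2:**
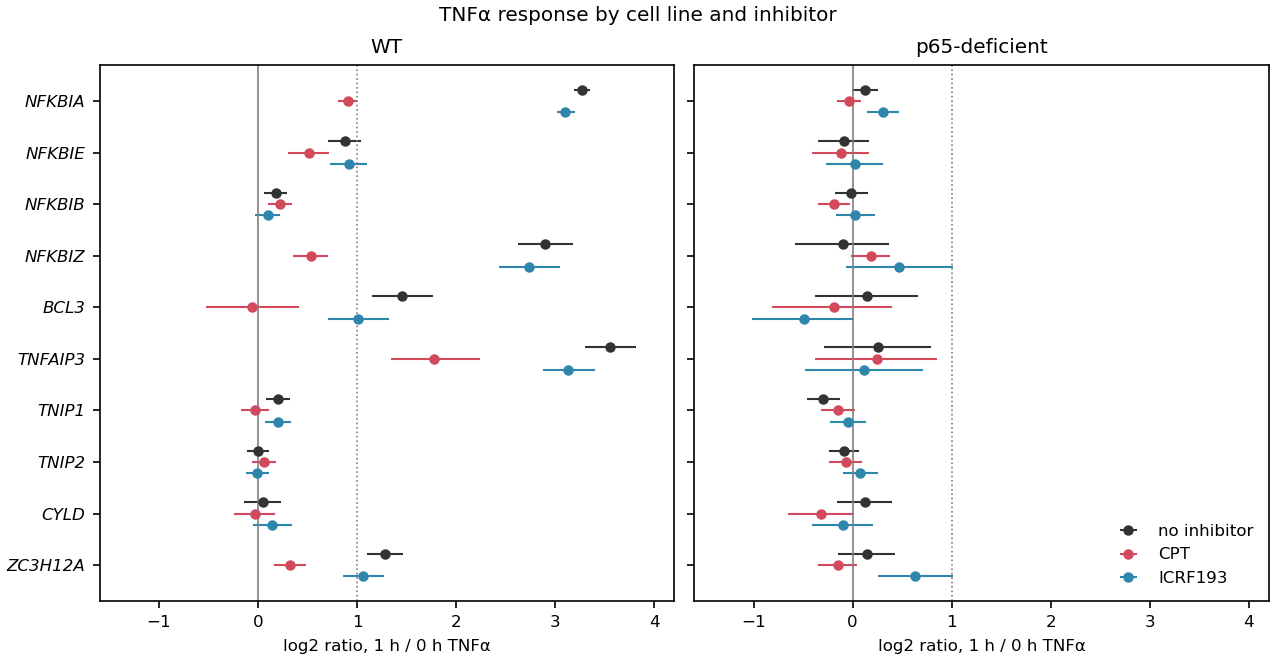
Log2 ratio of 1 h to 0 h TNFα for each gene in WT (left) and p65-deficient cells (right), coloured by inhibitor, with 95% counting intervals and a dotted line at 2-fold. Without inhibitor 5 genes lie beyond 2-fold in WT cells, with CPT only *TNFAIP3* does, and none does in p65-deficient cells.

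In WT cells without inhibitor 5 of the 10 members were more than 2-fold higher with TNFα, against 0.781% of 13823 genes with at least 20 reads in 1 or more libraries. With ICRF193 5 members were above 2-fold (background 1.24%), and with CPT 1 member was (background 0.709%). Scaled by total counted reads, 4 members were above 2-fold with ICRF193, where *BCL3* had a log2 ratio of 1.01 in the main scaling. The median log2 ratio of the members was 1.08 without inhibitor, 0.96 with ICRF193 and 0.27 with CPT, against 0.00, 0.00 and 0.01 over all genes. Taking the 3 WT pairs together with the pair as a block, edgeR's quasi-likelihood test found 6 of the 10 members higher with TNFα at an adjusted p (Benjamini-Hochberg) under 0.05, against 0.612% of 14226 genes tested, and none lower (0.0281%). *TNFAIP3* rose by 3.12 on the log2 scale (standard error 0.14, adjusted p = 1.66e-13), *NFKBIA* by 2.48 (0.23, adjusted p = 1.69e-07), *NFKBIZ* by 1.83 (0.23, adjusted p = 2.27e-05), *ZC3H12A* by 0.86 (0.11, adjusted p = 2.29e-05) and *NFKBIE* by 0.78 (0.08, adjusted p = 5.05e-07), each with a higher count in 3 of 3 pairs. *BCL3* rose by 0.97 (0.15, adjusted p = 0.000445), higher in 2 of 3 pairs. *NFKBIB* (0.17, 95% interval 0.06 to 0.28), *TNIP1* (0.13, 0.00 to 0.25), *TNIP2* (0.02, -0.09 to 0.12) and *CYLD* (0.05, -0.10 to 0.21) did not pass. *TNIP1* passed when the CPT pair was left out, at 0.20.

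These averages join pairs that differ in inhibitor, so that the standard errors do not measure agreement between replicates, and for *NFKBIA*, *NFKBIZ*, *TNFAIP3*, *BCL3* and *ZC3H12A* the ratios of the pairs lay much farther apart than the errors. With the pairs not entered as a block no gene passed, and DESeq2 called 2 of the 6 members, *TNFAIP3* and *NFKBIE*.

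Without p65 none of the 10 members passed the same test over the 3 pairs of the clone, against 0.467% of 13267 genes tested, and 1 member had an unadjusted p under 0.05 while DESeq2 called none. That member was *TNIP1* (-0.16, 95% interval -0.30 to -0.02). The interval was 0.00 to 0.25 for *NFKBIA* and -0.13 to 0.56 for *TNFAIP3*, the latter resting on 36 to 91 reads per library, and no member was more than 2-fold higher in any of the 3 pairs (backgrounds 1.33%, 0.637% and 2.16%). At 1 h without inhibitor the clone held 6.94% of the WT normalized count of *TNFAIP3*, 12.8% of that of *NFKBIA*, 14.7% of that of *NFKBIZ*, 34.5% of that of *BCL3*, 42.6% of that of *ZC3H12A* and 50.2% of that of *NFKBIE*. With CPT at 1 h the distance was smaller for these genes: 41.6% for *TNFAIP3*, 67.9% for *NFKBIA* and 93.9% for *ZC3H12A*, while *NFKBIZ* stood at 111% of WT with an interval that included equal levels.

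The difference itself was tested as an interaction over the 6 pairs. The TNFα effect was larger in WT cells for 3 of the 10 members, against 0.223% of 14766 genes tested. The log2 difference, WT minus p65-deficient, was 2.90 for *TNFAIP3* (standard error 0.30, adjusted p = 2.41e-05), 0.84 for *NFKBIE* (0.12, adjusted p = 0.00164) and 2.36 for *NFKBIA* (0.36, adjusted p = 0.00243). *NFKBIZ* (1.66, 95% interval 0.82 to 2.50, adjusted p = 0.122), *BCL3* (1.16, 0.58 to 1.73, adjusted p = 0.110) and *ZC3H12A* (0.75, 0.35 to 1.16, adjusted p = 0.18) did not pass by edgeR's test. Without the WT CPT pair all 6 passed, without the clone's pair lacking inhibitor only *TNFAIP3* did, and without the clone's ICRF193 pair *ZC3H12A* joined the 3 that passed. DESeq2 called *TNFAIP3* and *NFKBIE* and lost *NFKBIA*.

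**Figure D3:**
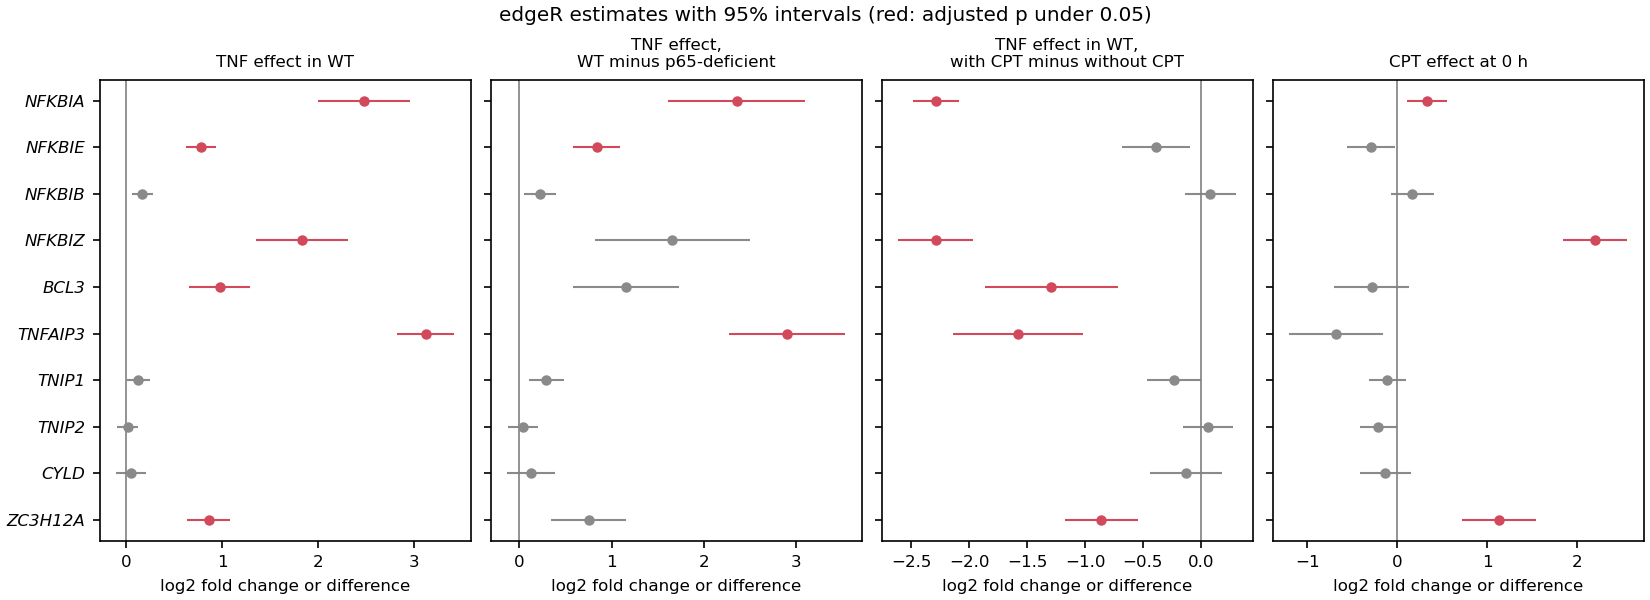
Log2 fold change or difference from edgeR's quasi-likelihood fits with 95% intervals, for the TNFα effect in WT cells, its difference between WT and p65-deficient cells, its difference with and without CPT, and the CPT effect at 0 h; red marks an adjusted p under 0.05, and each panel has its own range. The third panel shows 5 genes in red, all below 0, with *NFKBIA* and *NFKBIZ* both at -2.29.

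By edgeR's test the 1 h to 0 h TNFα ratio was lower with CPT for 5 of the 6 responding members. The extra TNFα effect in WT cells with CPT, relative to WT pairs without it, passed the threshold below 0 for 5 of 10 members. The share over the 15267 genes tested with edgeR's quasi-likelihood test was 0.269%. *NFKBIA* (-2.29, standard error 0.10, adjusted p = 2.66e-19) and *NFKBIZ* (-2.29, 0.16, adjusted p = 7.84e-13) had the largest differences, followed by *TNFAIP3* (-1.58, 0.28, adjusted p = 0.00111), *BCL3* (-1.29, 0.28, adjusted p = 0.0205) and *ZC3H12A* (-0.86, 0.15, adjusted p = 0.0015). *NFKBIE* did not pass (-0.38, 0.14, adjusted p = 0.350), although its ratio too was lower with CPT than in both other WT pairs. The term compares ratios, so a higher 0 h level lowers it as a lower 1 h level does. With CPT in WT cells, *NFKBIZ* had 350.5 normalized counts at 0 h against 84.0 without inhibitor, and *ZC3H12A* 443 against 240.2. At 1 h they stood at 81.1% and 94.8% of the level with TNFα alone, and *NFKBIA* at 22.8%. The error of this test comes from the other pairs, since the CPT pair has no replicate. DESeq2 called *NFKBIA*, *NFKBIZ* and *TNFAIP3*, and without the WT pair lacking inhibitor the same 3 genes passed with edgeR.

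On the scale of added mRNA, the normalized count gained between 0 h and 1 h in WT cells was 7849 for *NFKBIA* without inhibitor (counting standard error 87.8), 930.5 (48.4) with CPT and 7271 (86.3) with ICRF193. The gain with CPT was thus 11.9% of that without inhibitor. It was 10.6% for *TNFAIP3* (1008 and 107 counts gained), 28.9% for *NFKBIZ* (541 and 157), 32.0% for *ZC3H12A* (343 and 109.6) and 40.0% for *NFKBIE* (271 and 108). *BCL3* gained 147 (15.6) without inhibitor and -2.36 (9.70) with CPT. With ICRF193 the gains were between 77.3% (*ZC3H12A*) and 99.6% (*NFKBIE*) of those without inhibitor.

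The level reached at 1 h with CPT differed widely among the responders. Relative to the WT library with TNFα alone, CPT left 13.7% of *TNFAIP3*, 22.8% of *NFKBIA* and 25.5% of *BCL3*, 3 of 10 members more than 2-fold lower (background 5.36%), and 61.1% of *NFKBIE*. *NFKBIZ* stood at 81.1% and *ZC3H12A* at 94.8%, the latter with a log2 interval of -0.23 to 0.07. These ratios share their TNFα library without inhibitor with the TNFα ratios given above.

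**Figure D4:**
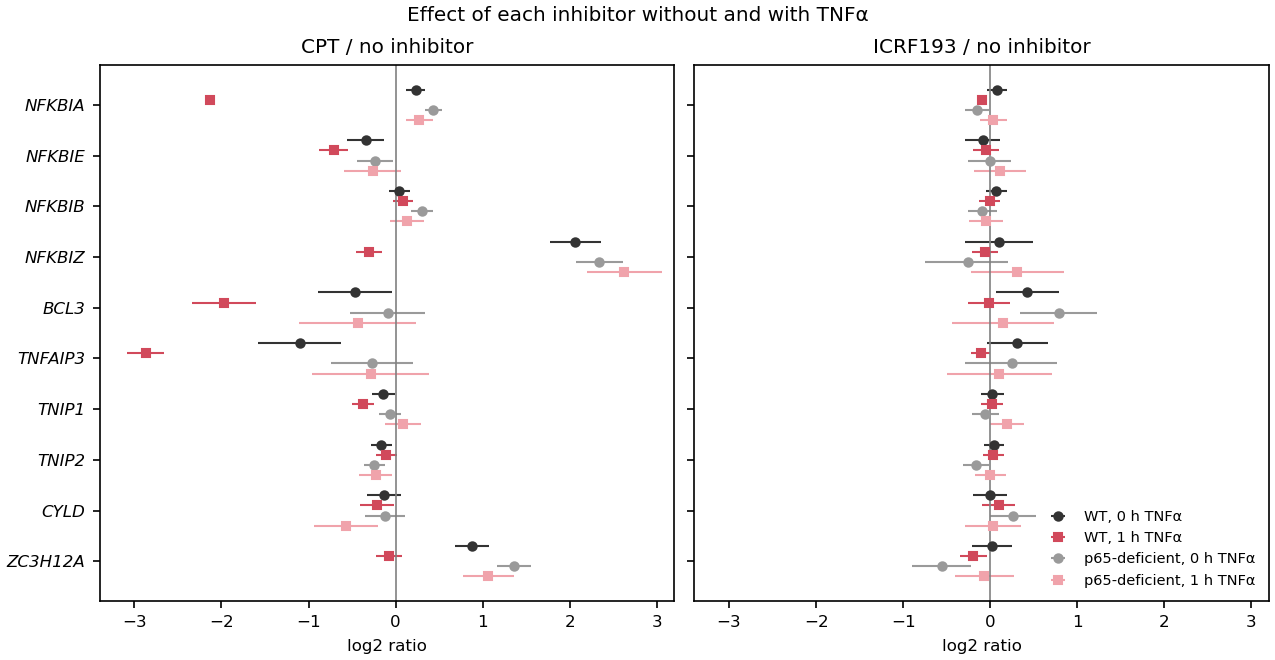
Log2 ratio of each inhibitor to no inhibitor for CPT (left) and ICRF193 (right) in WT and p65-deficient cells at 0 h and 1 h TNFα, with 95% counting intervals. Under CPT *NFKBIZ* lies above 2 in 3 of the 4 comparisons and near 0 in WT cells with TNFα, where *NFKBIA*, *BCL3* and *TNFAIP3* lie at or below -1.97.

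CPT alone raised *NFKBIZ* and *ZC3H12A* in both cell lines. In unstimulated cells the log2 ratio of CPT to no inhibitor was 2.06 (1.77 to 2.36) in WT cells and 2.34 (2.07 to 2.61) in the clone for *NFKBIZ*, and 0.88 (0.69 to 1.08) and 1.36 (1.17 to 1.55) for *ZC3H12A*. In an additive fit of the 6 unstimulated libraries, 3 of the 10 members were higher with CPT, against 8.85% of 14326 genes tested, and none was lower, against 16.4%. The log2 fold change was 2.20 for *NFKBIZ* (standard error 0.16, adjusted p = 4.08e-06 by edgeR's quasi-likelihood test), 1.13 for *ZC3H12A* (0.19, adjusted p = 0.00109) and 0.33 for *NFKBIA* (0.10, adjusted p = 0.035), each higher in 2 of 2 pairs. The median over the 10 members was -0.12, against 0.02 over all genes tested. The call of *NFKBIA* was lost with DESeq2, without the cell line as a block and when the unstimulated library without inhibitor of either line, or the clone's CPT library, was left out.

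*TNFAIP3* was lower with CPT at 0 h in WT cells (log2 ratio -1.09, -1.58 to -0.63, from 53 and 143 reads), whereas the clone had -0.27 (-0.74 to 0.20), and the difference between the cell lines was not tested. Over both, the fit gave -0.68 (standard error 0.24, adjusted p = 0.0578), and the adjusted p over the alternatives ranged from 1.26e-05, without the clone's CPT library, to 0.416. *NFKBIE* (-0.29, 95% interval -0.56 to -0.03), *BCL3* (-0.28, -0.71 to 0.14), *TNIP2* (-0.21, -0.42 to -0.00), *CYLD* (-0.13, -0.42 to 0.15), *TNIP1* (-0.11, -0.31 to 0.10) and *NFKBIB* (0.17, -0.07 to 0.41) did not pass. After 1 h TNFα in the clone CPT still went with more *NFKBIZ* (2.62, 2.20 to 3.06) and *ZC3H12A* (1.06, 0.77 to 1.36), and *CYLD* had its lowest value of all libraries there (182, log2 ratio -0.56, -0.94 to -0.20).

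ICRF193 moved no member past the test at 0 h, against 0.0209% of all genes. *BCL3* was the only member with an unadjusted p under 0.05 (0.60, 95% interval 0.18 to 1.01, adjusted p = 1 by edgeR's quasi-likelihood test), DESeq2 called none, and over the alternatives the adjusted p ranged from 0.0184, without the clone's CPT library, to 1. Its log2 ratio of ICRF193 to no inhibitor at 0 h was 0.43 (0.07 to 0.79) in WT cells and 0.79 (0.34 to 1.22) in the clone, and at 1 h -0.01 and 0.15 with intervals that included 0. The TNFα effect in WT cells with ICRF193 minus that without inhibitor, a test added after the data were seen, called none of the 10 members and 0.00655% of 15267 genes, with no member at an unadjusted p under 0.05 and none called by DESeq2. This test sets 1 WT pair against another, so its error comes from the clone's pairs, and it does not show that the effects are alike. The interval of that log2 difference was -0.40 to 0.07 for *NFKBIA*, -0.64 to 0.32 for *NFKBIZ*, -0.86 to 0.01 for *TNFAIP3*, -0.95 to 0.07 for *BCL3*, -0.61 to 0.17 for *ZC3H12A* and -0.31 to 0.38 for *NFKBIE*.

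Both inhibitors were given at the same concentration and for the same time. Side by side in WT cells at 1 h, the 6 responders stood at 87.4% (*ZC3H12A*) to 99.2% (*BCL3*) of the level without inhibitor under ICRF193, and at 13.7% (*TNFAIP3*) to 94.8% (*ZC3H12A*) under CPT. The test of the CPT term above has the ICRF193 pair in its reference, and there *NFKBIE* was the 1 responder without a call.

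Before stimulation the clone did not differ from WT cells past the threshold for any of the 10 members, against 8.23% of 14326 genes, with 1 member at an unadjusted p under 0.05 and none called by DESeq2. That member was *CYLD*, at a log2 difference of -0.36 (95% interval -0.60 to -0.12, adjusted p = 0.0646 by edgeR's quasi-likelihood test), lower in 3 of 3 pairs. *TNFAIP3* had -0.33 (-0.76 to 0.09), *NFKBIA* 0.18 (-0.00 to 0.37) and *NFKBIZ* 0.27 (-0.03 to 0.58). Leaving out either CPT library, which takes the CPT pair out of the comparison, put 4 members past the threshold, all lower in the clone: *TNFAIP3* (-0.57), *CYLD* (-0.33), *ZC3H12A* (-0.29) and *NFKBIB* (-0.25). The unstimulated libraries without inhibitor had log2 ratios of clone to WT of -0.56 (-0.95 to -0.17) for *TNFAIP3* and -0.45 (-0.65 to -0.25) for *CYLD*.

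Among other genes of the pathway few followed the members. Of 20 further negative regulators 18 were tested. With TNFα in WT cells *NFKB2*, the gene of p100, *NFKBID*, a further nuclear IκB gene, and *PDLIM2* rose, by 1.04, 0.60 and 0.30 on the log2 scale (standard errors 0.08, 0.10 and 0.06), and none fell. DESeq2 called *NFKB2* of these 3 genes. Of these *NFKB2* had a larger TNFα effect in WT than in p65-deficient cells (0.94, standard error 0.13) and a smaller one with CPT (-0.69, 0.11), of which DESeq2 called the latter. From the TNF receptor to the IKK complex, which marks IκB proteins for degradation, 17 of 18 genes were tested and *BIRC3*, the gene of the ubiquitin ligase cIAP2, alone rose, from 54.5 to 954 normalized counts without inhibitor (log2 ratio 4.13, 3.81 to 4.47), from 39.0 to 54.7 with CPT and from 44.2 to 916 with ICRF193. Its rise over the 3 pairs was not called by DESeq2. CPT alone raised *SOCS1* (2.49, standard error 0.26) and lowered *OTUD7B*, *N4BP1*, *NKIRAS1* and *NFKBIL1* among the negative regulators. It also lowered *TRAF2* (-1.02, 0.13), *RIPK1* (-0.66, 0.10), *BIRC2* (-0.63, 0.14), *TAB1* (-0.59, 0.12) and *TNFRSF1A* (-0.47, 0.13) among the receptor and IKK genes. The lowered genes are 4 of 18 and 5 of 17 genes tested, against 16.4% lower over all genes. In the clone TNFα moved none of these genes past the threshold, against 0.467% of 13267 genes tested, and DESeq2 called none. At an unadjusted p under 0.05 were 1 negative regulator and 2 receptor or IKK genes. *NKIRAS1* came close to the threshold (0.38, standard error 0.09, adjusted p = 0.0539 by edgeR's quasi-likelihood test). The 2 others were *TRAF2* (-0.26, 0.09) and *BIRC2* (0.15, 0.07).

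Over the 12 libraries the gene outside the members with the pattern most like that of *NFKBIA* was *NFKB2*, with a Pearson correlation of log2 normalized counts of 0.97, followed by *TNFAIP2* (0.97), *IRF1* (0.97), *CD83* (0.94) and *SDC4* (0.91) among 11301 genes with at least 20 reads in every library. The points are single libraries that share depth and treatment, so this is a description. Of the members *TNFAIP3* (0.94, rank 4) and *NFKBIE* (0.90, rank 7) were closest, and *BCL3* (0.75), *NFKBIZ* (0.69) and *ZC3H12A* (0.63) ranked 27, 48 and 94. The log2 TNFα ratios of *NFKB2*, *TNFAIP2*, *IRF1*, *CD83* and *SDC4* in WT cells were 1.26, 1.49, 2.01, 2.04 and 0.93 without inhibitor and 0.57, 0.22, 0.66, 0.13 and -0.03 with CPT.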

How the data were processed

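RNA-seq of total RNA (TruSeq Stranded total RNA kit) was analysed in 12 libraries, grouped by the deposited labels. The authors deposited raw counts: they trimmed the reads with trimmomatic and counted them with featureCounts 1.5.0 on the exons of hg19 gene symbols, per the file headers, without a strand setting, so that reads of either strand were counted together and reads on overlapping genes were not counted. Trimmomatic, STAR and deepTools stand in the submitters' processing notes without versions. From the counts, DESeq2 size factors over the 12 libraries gave normalized counts, and TPM were computed with the exonic lengths that the authors deposited beside the counts. Log2 ratios between 2 libraries carry exact Clopper-Pearson intervals (95%). PCR copies are not independent molecules, so these intervals cover counting error only. Counts past 2-fold used genes with at least 20 reads in 1 or more libraries.

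Tests across all genes used edgeR 4.0.16 (TMM, its expression filter, quasi-likelihood test, two-sided, Benjamini-Hochberg over all genes tested, threshold 0.05) on matched pairs that stand in for replicates. TNFα was tested in 3 pairs per cell line and as an interaction over 6 pairs, CPT as an extra TNFα term in WT cells, and inhibitors and cell line at 0 h in an additive fit of 6 libraries. For the extra CPT term, the WT pairs without inhibitor and with ICRF193 together were the reference. The 12 libraries carry 2 factors (cell line, inhibitor) that mark the pairs, and the labels give no replicate numbers. On simulated counts the TNFα test in WT cells recovered 104 of 104 genes changed 2-fold and 96 of 96 changed by a log2 fold of 2 among 14199 genes, with 3 false calls, and the CPT term recovered 83 of 96 and 102 of 104 among 14867, with 16 false calls. The simulation used a small fixed dispersion, the same effect in every pair, and changed genes only above a cut on mean reads. Simulated replicates do not carry differences between pairs. The recovery thus checks the fits and does not measure power or false calls in these data.

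The 10 genes and the other lists were chosen with earlier results of these data known. Named were the 10 genes, *RELA* and *TOP1*, the other pathway genes past a threshold of the TNFα or CPT tests, and the 5 genes most correlated with *NFKBIA*. Alternatives were other scalings, no filter on low counts, other read filters, a pseudocount of 0.5, DESeq2 1.42.0, no block, a separate ICRF193 term and leaving out pairs or libraries. Scaling by TMM or by total counts shifted the log2 ratios by at most 0.04 and 0.09. The fits ran in R 4.3.3, and ratios, intervals and plots were made in Python 3.11.15 with scipy 1.17.1, pandas 2.3.3 and matplotlib 3.10.9. The study's protein, qPCR and chromatin assays were not used here.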

Additional observations from a re-analysis of the deposited data

Results flagged for a closer look

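The TNFα effect differed between WT and p65-deficient cells past the threshold of edgeR's interaction test for 5 of the genes examined. They were 3 of the 10 members, 1 of 18 other negative regulators and 1 of 17 receptor or IKK genes, against 0.223% of 14766 genes tested. The log2 difference, WT minus p65-deficient, was 2.90 for *TNFAIP3*, 2.36 for *NFKBIA*, 0.84 for *NFKBIE*, 3.31 for *BIRC3* and 0.94 for *NFKB2*. In each case the rise was on the WT side. DESeq2 called *TNFAIP3* and *NFKBIE* and not the 3 other genes.

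In WT cells the TNFα ratio was smaller with CPT than in the pairs without it, past the threshold of edgeR's test, for 8 genes. They were 5 of the 10 members, 1 of 18 other negative regulators and 2 of 17 receptor or IKK genes, against 0.269% of 15267 genes tested. By edgeR's test over both cell lines, the 0 h level was also higher with CPT for *NFKBIZ* and *ZC3H12A*. *NFKBIA* was higher by less (0.33 on the log2 scale, a call lost with DESeq2), and *BIRC2* was lower (-0.63). The log2 difference was -2.29 for *NFKBIA*, -2.29 for *NFKBIZ*, -1.58 for *TNFAIP3*, -1.29 for *BCL3*, -0.86 for *ZC3H12A*, -3.74 for *BIRC3*, -0.69 for *NFKB2* and -0.63 for *BIRC2*. DESeq2 did not call *BCL3*, *ZC3H12A* and *BIRC2*.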

How the results depend on the processing

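No value that passed the threshold, in the main fit or under an alternative, changed its direction. All 600 recomputed log2 ratios of the 10 genes moved by less than their counting intervals, and of 660 recomputed test values 608 stayed on their side of the threshold, 25 fell below it and 27 came past it. Among the values that did not pass, some changed sign, such as *ZC3H12A* under ICRF193 at 0 h (-0.67 to 0.14 on leaving out a library). What depends on the processing is how many genes pass. The counts below are genes at an adjusted p under 0.05, where not said otherwise, and the causes were not tested.

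With DESeq2, 26 genes passed for TNFα in WT cells in place of 91, 2 of them members in place of 6. It called 2 genes for TNFα in the clone (62 with edgeR), 11 for the difference between the cell lines (35), where it lost *NFKBIA*, 19 for the CPT term (53), 3 of them members in place of 5, 2247 for CPT at 0 h (3611), 703 for the clone at 0 h (1179) and 0 for the ICRF193 term (1). Without the replicate block of the pair, no gene and no member passed (0) for TNFα in WT cells, in the clone or in the difference between them, 0 passed for ICRF193 at 0 h, 1795 for CPT at 0 h and 135 for the clone at 0 h. Without a filter on low counts, 143 genes passed for TNFα in the clone, 132 for the difference between the cell lines (6 of the 10 members in place of 3), 97 for the CPT term, 29 for ICRF193 at 0 h in place of 3 and 1970 for the clone at 0 h, with 1 member (*CYLD*) in place of 0. With a term of its own for ICRF193, the CPT term called 34 genes. Over 2-fold higher with TNFα in WT cells were 108 genes without inhibitor, 98 with CPT and 172 with ICRF193. With no read filter these were 537, 569 and 480 genes, and with at least 20 reads in 1 of the 2 libraries compared 51, 61 and 65.

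Leaving out a pair gave 60 to 372 genes for TNFα in WT cells (6 to 7 members, *TNIP1* joining without the CPT pair), 14 to 581 for TNFα in the clone (0 members throughout), 5 to 99 for the difference between the cell lines (1 to 6 members) and 31 to 149 for the CPT term (3 to 5 members). Leaving out a library at 0 h gave 2117 to 6386 genes for CPT (2 to 5 members), 6 to 169 for ICRF193 (0 to 1 member, *BCL3*) and 679 to 3777 for the clone (0 to 4 members). The lowest counts came without the WT ICRF193 pair, the clone's pair lacking inhibitor (for TNFα in the clone and for the difference) and the WT pair lacking inhibitor, and the highest without the WT CPT pair, the clone's ICRF193 pair (for the 3 other TNFα tests) and, for CPT and ICRF193 at 0 h, without the WT CPT library.

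With 1 library per condition the p-values rest on pairs that differ in inhibitor, and effects that differ between pairs enter the error only in part. The clone's values at 1 h rest on 8101212 to 8676666 counted reads, so that the intervals of low members there are wide, such as -0.38 to 0.85 for *TNFAIP3* and -0.81 to 0.39 for *BCL3*, both with CPT. Steady-state mRNA at 1 time point cannot tell transcription from mRNA decay.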
